A study of Mus musculus with 8 samples.

Results

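The 35 genes described here encode proteins of the cytosolic ribosome and a few of their close paralogs, as measured on Affymetrix MG-U74Av2 arrays of mouse CD8+ dendritic cells. A gene was taken as a member when a probe set carried exactly 1 symbol and that symbol was Rpl or Rps followed by a digit, or Rpsa, Rplp0, Rplp1 or Rplp2, without kinases named Rps6k and without pseudogene names. This gave 49 probe sets for 35 of the 8251 genes, 17 of the large subunit by name and 18 of the small subunit. Where a gene had several probe sets, the brightest on average over the 8 arrays stood for it. The symbols Rps6, Rpl3, Rpl5, Rpl11, Rpl26, Rplp1, Rplp2, Rps25, Rps27a and Rpl22l1 had no probe set of their own under this rule. A further 39 probe sets share a ribosomal protein symbol with other symbols, so no gene is named from them.

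The cells came from spleens of female DBA/2J mice, 60 days old, that all received 10 µg of Flt3-L, a cytokine that expands dendritic cells, for 9 days. Cultures held 200 U/ml of mouse IFN-γ for 16 hours, medium alone for 16 hours, IFN-γ for 4 hours or medium alone for 4 hours, with 2 arrays in each of the 4 groups. Whether the arrays of a pair stem from different mice, cultures or only hybridisations is not labelled, so the p-values rest on a spread that can be purely technical. Values are log2 of the deposited probe set intensity, and a difference of 1 is a doubling.

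The ribosome translates messenger RNA and is built from ribosomal RNA and about one protein of each kind per particle, so cells make these proteins in matched amounts. Many of their messengers begin with a C and then a run of C and T bases, the 5′ terminal oligopyrimidine or TOP motif. Through it the mTOR pathway and the binding protein Larp1 set their translation, often with little change in messenger level. One large-subunit protein has a role of its own in this setting: in human monocytic cells treated with IFN-γ, Rpl13a leaves the ribosome and joins the GAIT complex, which blocks translation of inflammatory messengers. Arrays measure messenger level only, and do not see translation.

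The start sites are shown first because the TOP motif is the feature that these messengers are known for. RefSeq promoter windows of GRCm38.p6 were listed for 28 of the 35 genes, with 37 starts, and a run of at least 5 C or T bases beginning at the first transcribed base was found at a listed start of 7 genes, 25% of the 28, against 5.28% of the 27025 genes with a listed window. Each line below gives 30 bases on the gene's strand, 15 before the start and 15 from it, with the run in capitals.
Rpl35a, chr16:33056467-33056496, plus strand: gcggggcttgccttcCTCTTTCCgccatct
Rpl38, chr11:114668565-114668594, plus strand: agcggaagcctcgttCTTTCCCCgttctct
Rpl7a, chr2:26910792-26910821, plus strand: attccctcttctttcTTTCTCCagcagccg
Rps10, chr17:27635230-27635259, minus strand: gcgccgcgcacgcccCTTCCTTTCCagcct
Rps18, chr17:33955651-33955680, minus strand: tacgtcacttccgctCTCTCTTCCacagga
Rps24, chr14:24490663-24490692, plus strand: cccgcgctggggtccTTCCTTgcgcgttga
Rps27, chr3:90213634-90213663, minus strand: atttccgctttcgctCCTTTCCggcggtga
The run was 10 bases long at Rps10 and 6 at Rps24. The runs of Rpl7a and Rps24 open with T at the listed start, so the count is of runs of C or T and not of TOP motifs. The count depends on the exact base that RefSeq lists as the start, and several of the sequences, such as that of Rpl7a, hold a longer run that opens before it.

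A second shared feature of these promoters was the hexamer CTTCCG, the core that ETS family factors such as Gabpa bind. It was searched on both strands, where it reads CGGAAG on the other strand, in windows of 300 bases, 250 before and 50 after the start. It lay in a listed window of 19 of the 28 genes, 67.9%, against 18.8% of all genes with a window. The 60 bases before the start are shown for Rpl37a, Rpl38 and Rps18, each of which holds 2 copies there, in capitals.
Rpl37a, chr1:72711200-72711259, plus strand: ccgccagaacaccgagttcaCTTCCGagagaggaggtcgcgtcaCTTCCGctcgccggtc
Rpl38, chr11:114668520-114668579, plus strand: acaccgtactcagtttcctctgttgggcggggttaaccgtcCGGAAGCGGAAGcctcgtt
Rps18, chr17:33955666-33955725, minus strand: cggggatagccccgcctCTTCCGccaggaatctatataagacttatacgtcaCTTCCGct
A match describes the letters in the window and no binding was measured.

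As a check of the treatment, the 5 IFN-γ target genes fixed for it were all called higher with IFN-γ at 4 hours, and 4 of the 5 at 16 hours, at an adjusted p under 0.05. The exception, Cxcl10, was higher by 0.88 at 16 hours, which passed with array number as a block (limma, adjusted p = 0.0049) and not without it (adjusted p = 0.0886). Fits lacking either array of medium at 4 hours, or array 1 of IFN-γ at 4 hours, called 3 of the 5 at 4 hours, and the fit lacking array 2 of medium at 16 hours called 2 of the 5 at 16 hours. The array medians of 15 antisense control probe sets, which have no target in the sample, were between 44.9 and 61.2 intensity units. Of 9 measured markers of CD8+ dendritic cells, 8 lay above these medians on all 8 arrays. The exception was Zbtb46, a transcription factor of conventional dendritic cells. So did 5 of 5 neutrophil, 5 of 6 T cell, 5 of 6 B cell and 6 of 10 macrophage genes. The measure therefore does not show that the cultures held CD8+ dendritic cells alone. The median of all probe sets was between 5.68 and 5.75 on the log2 scale on every array, and that of the 35 ribosomal protein genes between 10.58 and 10.73.

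Signal differed widely between the probe sets of these genes, and since a probe set's brightness depends on its own probes, no order of messenger level is read from it. The 25 genes above the antisense controls on all 8 arrays included Rpl41, the shortest ribosomal protein, with 13.58 and 13.59 in IFN-γ at 16 hours, 13.56 and 13.47 in medium at 16 hours, 13.57 and 13.53 in IFN-γ at 4 hours, and 13.61 and 13.50 in medium at 4 hours. Its 8 arrays lay so close that the SD was 0.047. Rplp0, the base of the stalk that recruits translation factors, had 12.73 and 12.83 in IFN-γ at 16 hours, 12.80 and 12.82 in medium at 16 hours, 12.78 and 12.83 in IFN-γ at 4 hours, and 12.79 and 12.80 in medium at 4 hours, with an SD of 0.034 over the 8 arrays. Neither gene set the 4 groups apart. Rps28, Rps24 and Rps18, of the small subunit, averaged 12.77, 12.59 and 12.55. Several other bright members had wider ranges over the 8 arrays than Rpl41 and Rplp0. Rpl7 lay between 11.48 and 11.91, Rps24 between 12.44 and 12.80, and Rps4x between 11.98 and 12.28. Rpl7 and Rps24 each had another probe set, averaging 4.29 and 4.76, that lay below the antisense medians on every array. Rps3a1 lay between 12.10 and 12.36, Rps3 between 12.05 and 12.30, Rpl6 between 11.82 and 12.07, and Rps10 between 11.53 and 11.76. Rpl37a and Rpl19, of the large subunit, had narrower ranges than Rpl41, between 9.89 and 10.02 and between 12.25 and 12.35.

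A further 8 genes stayed below the antisense medians on every array: Rpl32, Rpl38, Rpl39, Rps14, Rps15, Rps20, and the paralogs Rpl39l and Rps4l. Rps15 averaged 3.13 and Rps14 averaged 3.88 on the log2 scale. Rpl35a was above the antisense medians on 2 arrays and Rpl7l1 on 7. Why these probe sets were dim was not tested. Results below are for all 35 genes. For the 25, the spread over arrays is added, and counts called and medians in the 4 comparisons of treatment and time.

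**Figure D1:**
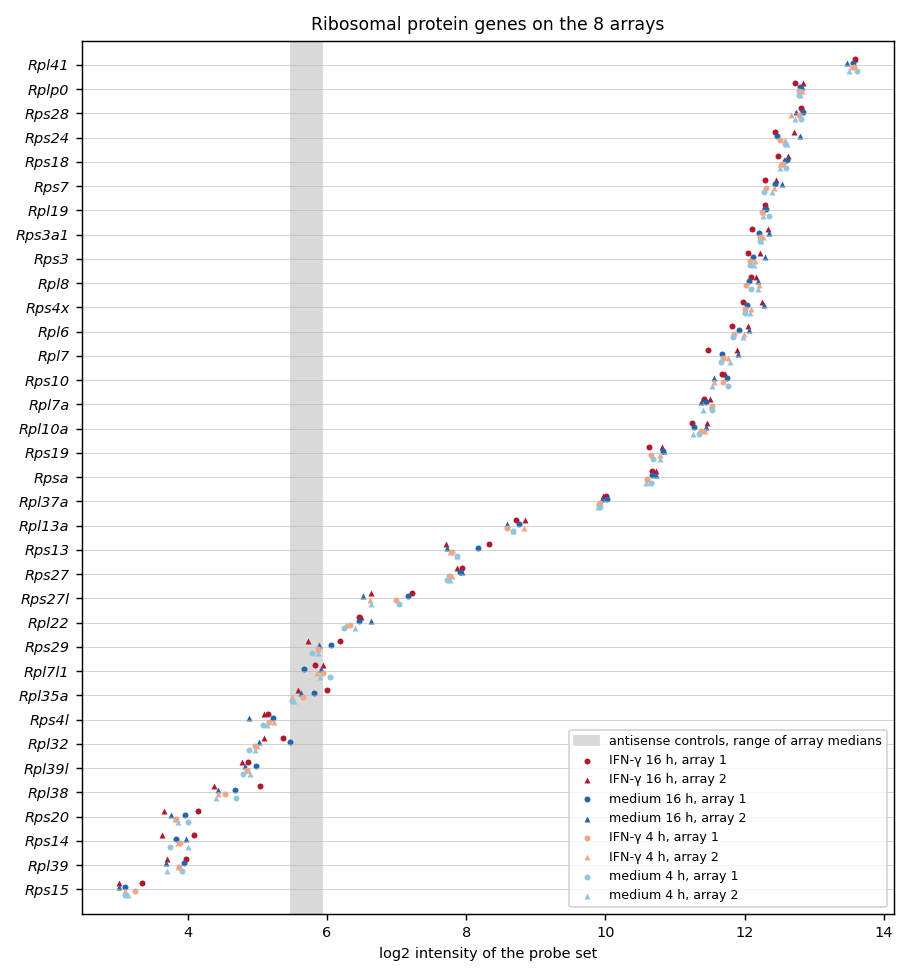
Log2 intensity of the probe set of each of the 35 ribosomal protein genes on the 8 arrays, with genes ordered by mean and groups by colour; circles are array 1, triangles array 2, and the grey band spans the array medians of the antisense controls, 5.49 to 5.93. Within each gene the 8 points lie close together, and 8 genes stay below the band's values on every array.

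The genes varied little from array to array. The SD over the 8 arrays had a median of 0.0992 over the 35 genes and of 0.0848 over the 25, against 0.157 over the 4326 genes of the whole array that lay above the antisense controls on all 8 arrays and 0.151 over all 8251 genes. These are descriptions with no test, and the brightness of the probe sets was not matched. The widest spreads were those of Rps27l, a p53-induced paralog of Rps27, with an SD of 0.280, and of Rps13, with 0.225.

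With IFN-γ for 16 hours, none of the 35 genes passed the test against medium for 16 hours. By limma at an adjusted p under 0.05, 0 of 35 were called, 0 had an unadjusted p under 0.05, and 0.258% of all 12422 probe sets were called. With array number as a block, again 0 of 35 were called, beside 0.845% of all probe sets. The median difference over the 35 genes was -0.0031 on the log2 scale, against -0.0032 over all probe sets, and the genes ranged from -0.11 to 0.15. Over the 25 genes above the antisense controls the median was -0.016, and 0 of 25 were called. By subunit the medians were 0.0018 for the large and -0.022 for the small. The 95% interval of the difference lay within 0.5 of zero on the log2 scale for 32 of the 35 and within 1 for all 35, so a doubling was outside every interval.

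Rpl13a, the GAIT component, had 8.71 and 8.84 in IFN-γ at 16 hours, against 8.76 and 8.58 in medium at 16 hours. One medium array lay above 1 of the IFN-γ arrays, and the difference was 0.11 with a 95% interval from -0.18 to 0.39 (limma, adjusted p = 0.9998). Rps19, the small-subunit protein most often mutated in human Diamond-Blackfan anaemia, had 10.63 and 10.81 in IFN-γ, against 10.83 and 10.84 in medium. It was the single gene with both IFN-γ arrays below both medium arrays, against 9.85% of all probe sets, and Rpl41 the single gene with both above, against 9.10%. The difference of Rps19 was -0.11, with an interval from -0.37 to 0.15.

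Rps7, which in human cells also binds the p53 regulator Mdm2, differed by -0.11 and Rpl7 by -0.11. Rpl7 had 11.48 and 11.89 in IFN-γ, against 11.67 and 11.91 in medium, so its IFN-γ arrays lay further from each other than the group means did. Rpl38, whose loss in mice alters translation of Hox messengers, had the largest positive difference of the 35, 0.15, with 5.04 and 4.38 in IFN-γ and 4.68 and 4.43 in medium. That value came from 1 array of a probe set below the antisense controls. Rps15 differed by 0.12, Rpl7l1 by 0.10, Rps27l by 0.08 and Rps13 by 0.07, while Rpl39l, Rps3 and Rpl22 differed by -0.08, -0.07 and -0.07. Rpsa, which is also known as the laminin receptor precursor, differed by 0.004, Rplp0 by -0.028 and Rpl10a by -0.008.

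With IFN-γ for 4 hours, again 0 of 35 genes were called against medium for 4 hours and 0 had an unadjusted p under 0.05, beside 0.258% of all probe sets called, and 0 of 35 beside 1.26% with array number as a block. The median difference was 0.0018, against -0.0076 over all probe sets, and the genes ranged from -0.11 to 0.10. Over the 25 genes above the antisense controls the median was -0.0024, and 0 of 25 were called. Intervals lay within 0.5 of zero for 32 of the 35 and within 1 for all 35. Groups did not overlap for 2 genes that were higher with IFN-γ, against 15.4% of all probe sets, and for 4 that were lower, against 17.9%.

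Rpl10a, a protein of the mobile L1 stalk, had the largest positive difference of the 35 at 4 hours, with 11.37 and 11.43 in IFN-γ, against 11.34 and 11.26 in medium. The arrays did not overlap, yet the difference of 0.10 had an interval from -0.17 to 0.38 (limma, adjusted p = 0.9999). The second probe set of Rpl10a went the other way, at -0.09. Rps20, below the antisense controls, had 3.84 and 3.81 in IFN-γ, against 4.01 and 3.85 in medium, a difference of -0.11.

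Rps13 had 7.80 and 7.77 in IFN-γ, against 7.87 and 7.87 in medium, a difference of -0.09 in which the arrays did not overlap. Rpl19, which forms part of a bridge between the subunits, differed by -0.06 and Rps24 by -0.05, both without overlap. The other genes with the largest differences were Rps4l at 0.09, Rpl35a at 0.07, Rpl7a at 0.06, Rpl39 at 0.05 and Rpl32 at 0.05 on the positive side, and Rpl7l1 at -0.07 and Rpl38 at -0.07 on the negative. Rpl13a had 8.58 and 8.83 in IFN-γ, against 8.67 and 8.67 in medium, a difference of 0.04. Its medium arrays lay between its IFN-γ arrays.

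The test of the difference between the effects of IFN-γ at 16 and at 4 hours called 0 of 35 genes, with 0 at an unadjusted p under 0.05. It called 0 of all 12422 probe sets, of which 353 had an unadjusted p under 0.05, and 0.242% with array number as a block. The median over the 35 genes was -0.019, with a range from -0.14 for Rps7 to 0.22 for Rpl38. This comparison was the least precise: intervals lay within 0.5 of zero for 25 of the 35. The next largest were Rpl7l1 at 0.17, Rps13 at 0.16 and Rps20 at 0.14, and on the other side Rpl7 at -0.11, Rpl10a at -0.11 and Rps19 at -0.10.

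**Figure D2:**
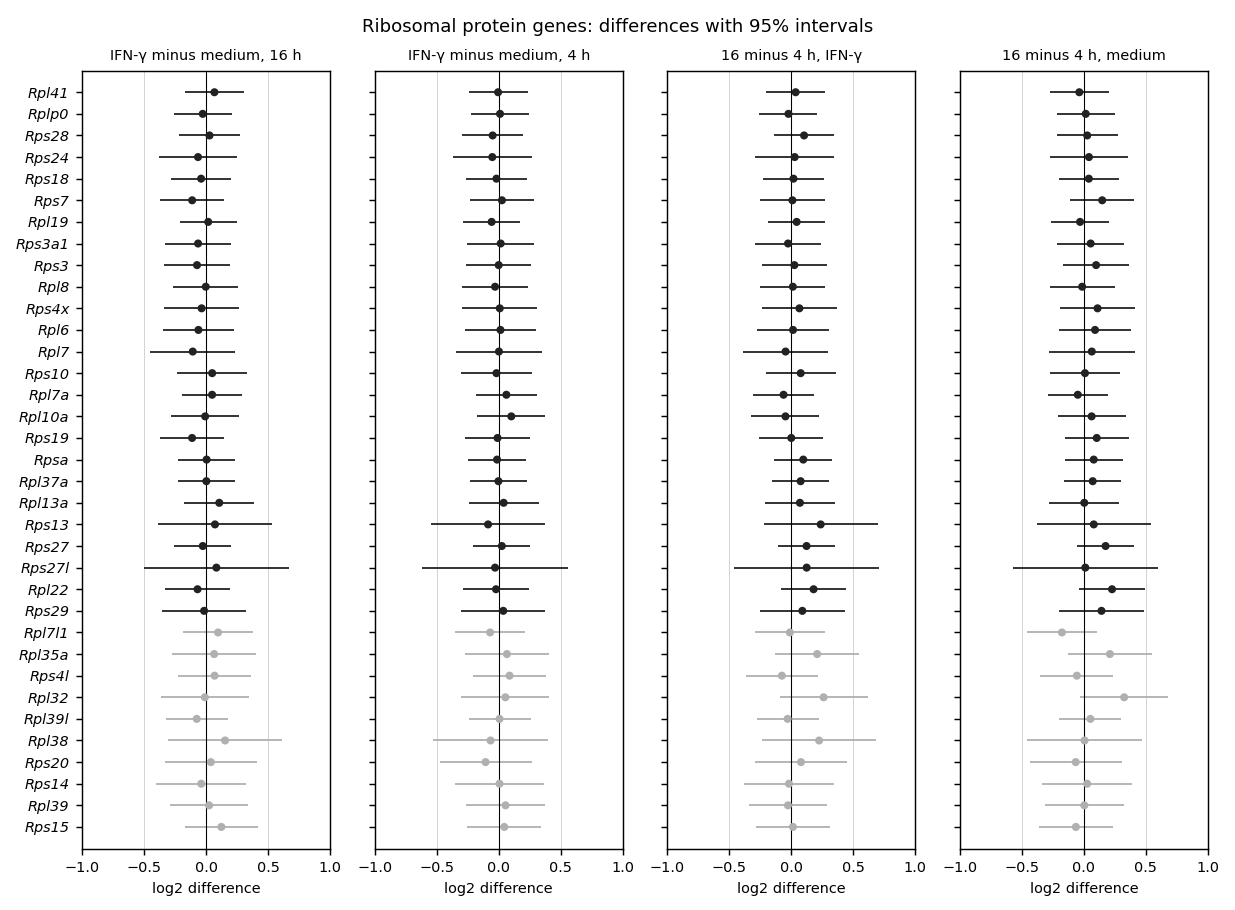
Log2 difference of each ribosomal protein gene in the 4 comparisons (points) with its 95% moderated interval (lines), genes ordered by mean intensity, those not above the antisense controls on all 8 arrays in grey. All 140 intervals include zero.

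Between 16 and 4 hours of culture, too, none of the 35 genes passed the test. With IFN-γ, 0 of 35 genes were called at 16 against 4 hours and 0 had an unadjusted p under 0.05, while 2.12% of all probe sets were called, and 0 of 35 beside 10.1% with array number as a block. The median difference was 0.027, against 0.052 over all probe sets, with a range from -0.08 to 0.26. Groups did not overlap for 8 genes that were higher at 16 hours, against 21.6% of all probe sets, and for 2 that were lower, against 17.7%. Rpl22 had 6.47 and 6.49 at 16 hours, against 6.33 and 6.27 at 4 hours, a difference of 0.18, and Rps27 had 7.93 and 7.86, against 7.76 and 7.79, a difference of 0.12.

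Rpl32 differed by 0.26, Rps13 by 0.24, Rpl38 by 0.22, Rpl35a by 0.21 and Rps27l by 0.12. Rps13 had 8.33 and 7.71 at 16 hours with IFN-γ, against 7.80 and 7.77 at 4 hours, so array 1 at 16 hours made that difference. On the other side Rps4l differed by -0.08, Rpl7a by -0.06, Rpl10a by -0.05, Rpl7 by -0.05, Rpl39l by -0.03 and Rpl39 by -0.03.

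In medium, 0 of 35 genes were called at 16 against 4 hours, with 0 at an unadjusted p under 0.05, while 4.27% of all probe sets were called. With array number as a block, 0 of 35 were called beside 12.6% of all probe sets, and 2 genes, Rpl32 and Rpl22, had an unadjusted p under 0.05. The median difference was 0.041, against 0.053 over all probe sets, and the range was -0.18 to 0.32. Groups did not overlap for 9 genes that were higher at 16 hours, against 30.8% of all probe sets, and for 1 that was lower, against 20.8%.

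Rpl22, which developing T cells of mice need, had 6.46 and 6.64 at 16 hours in medium, against 6.24 and 6.41 at 4 hours. Both 16-hour arrays lay above both 4-hour arrays, and the difference was 0.23, a 1.17-fold level, with an interval from -0.04 to 0.49 (limma, adjusted p = 0.386). A second probe set of Rpl22 differed by 0.07. Rpl32 had the largest difference of the 35, with 5.47 and 5.03 at 16 hours, against 4.88 and 4.97 at 4 hours. Its probe set lay below the antisense controls, and the difference of 0.32 had an adjusted p of 0.355 by limma.

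Rps27, a small-subunit protein with a zinc finger, had 7.91 and 7.94 at 16 hours in medium, against 7.73 and 7.77 at 4 hours, a difference of 0.17 with an interval from -0.06 to 0.41. The arrays of Rpl22 and of Rps27 did not overlap in medium. Both are among 5 genes, with Rpl32, Rpl37a and Rpsa, that were higher at 16 hours without overlap in both cultures, as were 12.4% of all probe sets. Its paralog Rps27l differed by 0.01, but its interval ran from -0.57 to 0.60. Rps7 had 12.43 and 12.53 at 16 hours, against 12.27 and 12.40 at 4 hours, a difference of 0.15. Rpl35a at 0.21 and Rps29 at 0.14 followed the same direction without overlap, as did Rps19 at 0.10, Rpsa at 0.08 and Rpl37a at 0.07. On the other side Rpl7l1, a relative of Rpl7, differed by -0.18, Rps20 by -0.07, Rps15 by -0.06, Rps4l by -0.06, Rpl7a by -0.05 and Rpl41 by -0.04. Over the 25 genes above the antisense controls the medians were 0.035 with IFN-γ and 0.062 in medium, and 0 of 25 were called in either. By subunit they were 0.014 with IFN-γ and 0.015 in medium for the large, and 0.046 with IFN-γ and 0.048 in medium for the small.

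Marker genes of several cell types differed with time. The summed intensity over 10 macrophage genes, of which 6 lay above the antisense controls on all arrays and Mrc1 below, was 3255 to 4057 in IFN-γ and 4484 to 5295 in medium at 16 hours, against 1274 to 1282 in IFN-γ and 1714 to 1749 in medium at 4 hours. Of these 10, the splenic macrophage regulator Spic went the other way, with 4.06 and 4.57 in IFN-γ and 5.06 and 5.50 in medium at 16 hours, against 5.71 and 5.80 in IFN-γ and 6.28 and 6.32 in medium at 4 hours, on the log2 scale. The sum over 3 erythroid genes, of which 1 lay above the antisense controls on all arrays and Hbb-b2 below, was 215 to 258 in IFN-γ and 208 to 221 in medium at 16 hours, against 377 to 396 in IFN-γ and 420 to 425 in medium at 4 hours. Of these 3, Alas2 overlapped between the times in both cultures. On the log2 scale it had 5.99 and 5.37 at 16 hours with IFN-γ, against 5.68 and 5.52 at 4 hours. In medium it had 5.69 and 5.51 at 16 hours, against 5.55 and 5.46 at 4 hours. The sum over 6 B cell genes, 5 above the controls and Cr2 below, was 3051 to 3260 in IFN-γ and 2812 to 3061 in medium at 16 hours, against 2079 to 2195 in IFN-γ and 2472 to 2855 in medium at 4 hours. In medium the B cell sums at 16 and 4 hours thus overlapped, and no difference with time is read from them there. The summed intensity over 4 proliferation genes was 1171 to 1281 in IFN-γ and 1054 to 1059 in medium at 16 hours, against 1579 to 1640 in IFN-γ and 1645 to 1656 in medium at 4 hours. In these bulk cultures fewer cells of a type and less RNA per cell cannot be told apart, and the part of these differences in the values of the ribosomal protein genes was not tested.

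The arrays numbered 1 and 2 also differed from each other. The difference between array 1 and array 2 was correlated between groups over the 35 genes, with all 6 Pearson coefficients between 0.312 and 0.727, and over all probe sets between 0.367 and 0.740; the points share arrays and these are descriptions. The labels do not say what the number stands for. Array 1 was below array 2 in all 4 groups for 10 genes, Rpl6, Rpl7, Rpl8, Rplp0, Rps19, Rps24, Rps3, Rps3a1, Rps4x and Rps7, against 19.0% of all probe sets. It was above array 2 in all 4 groups for 5 genes, Rpl37a, Rpl38, Rpl39, Rps20 and Rps27l, against 22.0% of all probe sets.

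Tested as a coefficient in the fit with both terms, a choice made after the data had been seen, the array number was called for 2 of the 35 genes, beside 15.0% of all probe sets. Both were higher on array 1, as were 6.32% of all probe sets. Rps27l had 7.22 on array 1 and 6.63 on array 2 in IFN-γ at 16 hours, 7.16 and 6.52 in medium at 16 hours, 6.99 and 6.61 in IFN-γ at 4 hours, and 7.03 and 6.63 in medium at 4 hours. Array 1 was higher every time, by 0.50 on average with a 95% interval from 0.35 to 0.66 (limma, adjusted p = 0.00532). Rpl38 was higher on array 1 by 0.32, with an interval from 0.12 to 0.52 (limma, adjusted p = 0.0400). Its probe set lay below the antisense controls, whose medians were also higher on array 1, and the part of that in this difference was not tested. Rpl7 was lower on array 1 by a mean difference of -0.21, which did not pass (limma, adjusted p = 0.0758).

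For 15 of the 35 genes the mean difference between the array numbers was larger than the difference in each of the 4 comparisons of treatment and time, as it was for 25.9% of all 12422 probe sets. Rps24 is an example, at -0.17 between the numbers and at most 0.07 in size between conditions. Rps4x, encoded on the X chromosome, had -0.17 and at most 0.11, and Rpl8, which lies near the peptidyl transferase centre, had -0.12 and at most 0.03.

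**Figure D3:**
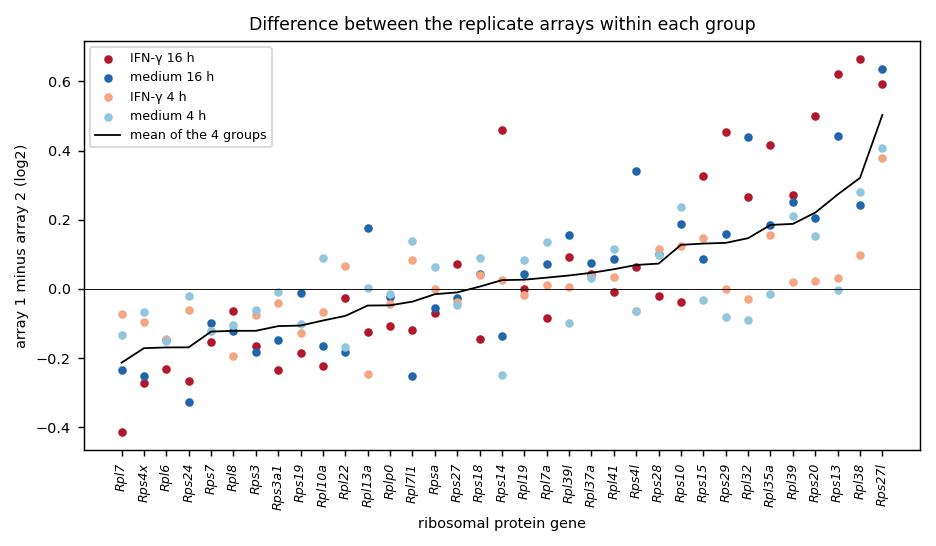
Array 1 minus array 2 on the log2 scale for each ribosomal protein gene in the 4 groups (points) and their mean (line), genes ordered by the mean. Rps27l and Rpl38 lie above zero in all 4 groups, and Rpl7 lies below zero in all 4.

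Genes with several probe sets gave the same calls. Of the 35 genes 10 had more than 1 probe set, and none of these was called in any of the 5 comparisons. Rps28 had 3 probe sets with means of 12.77, 12.10 and 6.66, which at 16 hours differed between IFN-γ and medium by 0.03, -0.08 and 0.13. Rps4x had 5, of which the first alone lay above the antisense controls on all 8 arrays, and their differences at 16 hours were -0.04, 0.02, 0.16, 0.02 and 0.02. Probe sets of such genes may also take up messengers of processed copies elsewhere in the genome, which the files do not separate.

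The 39 probe sets that share a ribosomal protein symbol with other symbols, 34 of them above the antisense controls, were called in no comparison either. With IFN-γ their median difference was -0.018 at 16 hours and -0.0033 at 4 hours, and at 16 against 4 hours it was 0.042 with IFN-γ and 0.063 in medium. None of the 39 had an unadjusted p under 0.05 in these comparisons by limma.

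Genes of ribosome assembly, of tRNA charging and of the proteasome were among those that fell at 16 against 4 hours, from lists drawn up with earlier results of these data known. Over all probe sets 1.30% fell with IFN-γ and 2.57% in medium, or 6.94% with IFN-γ and 8.09% in medium with array number as a block, and no list was tested as a set. With IFN-γ 4 of 27 ribosome biogenesis genes fell, with a list median of -0.35. In medium 7 of the 27 fell and 0 rose, with a list median of -0.37, against 0.053 over all probe sets. Fbl, the methyltransferase of box C/D particles, fell by 0.82 (limma, adjusted p = 0.00399), with 9.08 and 8.95 at 16 hours, against 9.85 and 9.83 at 4 hours. Its partner Nop56 fell by 0.88, and Gar1 and Nhp2, of the particles that make pseudouridine, fell by 0.92 and 0.72.

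Of 19 aminoacyl-tRNA synthetases 3 fell with IFN-γ and 7 in medium, and their median differences were -0.48 with IFN-γ and -0.52 in medium. Gars, for glycine, fell by 1.01 in medium, with 6.95 and 7.19 at 16 hours, against 8.00 and 8.15 at 4 hours. Eprs, for glutamate and proline and also of the human GAIT complex, fell by 1.26 in medium (limma, adjusted p = 0.0168), whereas Rpl13a differed by 0.003 there. With IFN-γ Eprs differed by -0.67, which passed with array number as a block (limma, adjusted p = 0.0026) and not without it (adjusted p = 0.188). Wars, for tryptophan, was the single synthetase called with IFN-γ against medium, higher at 4 hours by 0.75 (limma, adjusted p = 0.0436). At 16 hours it differed by 0.64, which passed with array number as a block (limma, adjusted p = 0.0155) and not without it (adjusted p = 0.0922). With the block the initiation factor gene Eif1a also rose with IFN-γ at 4 hours, by 0.79 (limma, adjusted p = 0.0117, against 0.463 without it).

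In the constitutive proteasome 1 of 30 genes fell with IFN-γ and 13 of 30 in medium, with medians of -0.45 with IFN-γ and -0.61 in medium. The initiation factors were taken by name, Eif and a digit without Eif2ak, and include Eif4ebp1 and Eif4ebp2, which are also among the regulators below. Of these 37 genes 1 fell with IFN-γ and 2 in medium, Eif6 by 0.64 and Eif1ax by 0.71. The mitochondrial ribosome had 0 of 61 genes lower with IFN-γ and 1 in medium, Mrpl12 by 0.50, and RNA polymerase I had 0 of 16 with IFN-γ and 1 in medium, Polr2f, a subunit shared by the nuclear RNA polymerases, by 0.52. The termination factor Etf1 fell by 0.69 with IFN-γ and by 0.66 in medium, the single gene called of 9 of elongation and termination. The medians of these 9 were 0.053 with IFN-γ and 0.075 in medium. Of 17 other genes with TOP messengers 0 were called in either, with medians of -0.098 with IFN-γ and 0.073 in medium. The counts from initiation factors to TOP messengers are of 0 to 2 genes each, and nothing is read from them about those lists.

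With array number as a block the counts with IFN-γ were 11 of 27 for biogenesis, 12 of 19 for synthetases, 22 of 30 for the proteasome, 11 of 37 for initiation factors and 7 of 61 for the mitochondrial ribosome, and in medium they were 13, 12, 26, 13 and 12. For RNA polymerase I they were 4 of 16 with IFN-γ and 3 in medium, for elongation and termination 2 of 9 with IFN-γ and 1 in medium, and for the other TOP messengers 2 of 17 with IFN-γ and 2 in medium, all lower at 16 hours. Without the block, the counts of biogenesis, synthetase and proteasome genes lower in medium, 7, 7 and 13, became 0, 0 and 0 when either array of medium at 4 hours was left out. They became 3, 1 and 1 when array 1 of medium at 16 hours was left out, and 7, 4 and 3 for its array 2. They became 5, 4 and 2 for either array of IFN-γ at 4 hours, and 12, 10 and 23 for either array of IFN-γ at 16 hours. With IFN-γ the counts 4, 3 and 1 became 0, 0 and 0 for either array of IFN-γ at 4 hours, 2, 0 and 0 for array 1 of IFN-γ at 16 hours, 9, 8 and 15 for its array 2, and 2, 0 and 0 for either array of medium at 4 hours. Each smaller count above, from initiation to termination factors, became 0 for either array of medium at 4 hours. Those with IFN-γ also became 0 for either array of IFN-γ at 4 hours and for array 1 of IFN-γ at 16 hours. Those in medium also became 0 for array 1 of medium at 16 hours, and those of the mitochondrial ribosome, RNA polymerase I and termination for its array 2. The counts of the mitochondrial ribosome and RNA polymerase I in medium became 0 for either array of IFN-γ at 4 hours too, where that of initiation factors became 1. The ribosomal protein genes had 0 calls in each of these fits. The difference between the ribosomal protein genes and the other lists was not tested.

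Among 14 regulators of ribosomal protein synthesis, Mxd1, a repressor that competes with Myc for Max, was the single gene called. It rose with IFN-γ at 4 hours by 0.91 (limma, adjusted p = 0.0408), with 8.19 and 7.84 in IFN-γ, against 7.22 and 6.99 in medium. It fell by 0.78 at 16 against 4 hours with IFN-γ (limma, adjusted p = 0.0246), where the count of these regulators became 0 without either 4-hour array of either culture or array 1 of IFN-γ at 16 hours. The calls of Mxd1 and Wars at 4 hours were lost when any 1 array was left out, except those of IFN-γ at 16 hours. Myc had 4.71 and 5.15 at 16 hours in medium, against 5.55 and 5.54 at 4 hours, a difference of -0.62 that passed with array number as a block (limma, adjusted p = 0.0130) and not without it (adjusted p = 0.125). Each of these Myc values lay below the antisense median of its array, 5.93 and 5.64 at 16 hours and 5.79 and 5.59 at 4 hours. With the block 3 of the 14 regulators fell at 16 against 4 hours with IFN-γ and 3 in medium, against 1 with IFN-γ and 0 in medium without it. Eif4ebp1 is among those that fell with the block in both cultures, and is counted with the initiation factors too.

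**Figure D4:**
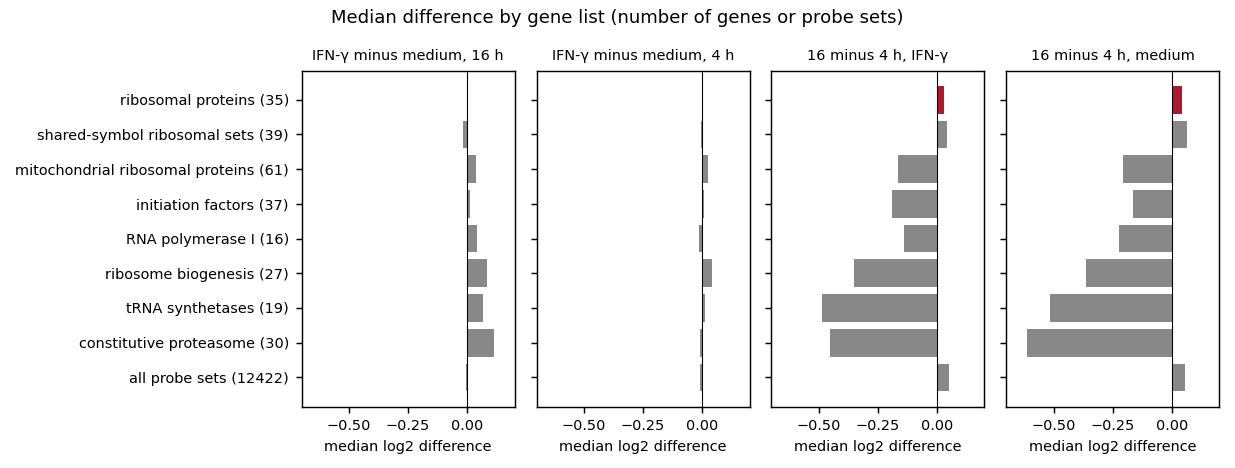
Median log2 difference over each gene list in the 4 comparisons, ribosomal protein genes in red, with the number of genes or probe sets in parentheses. At 16 against 4 hours the bars of the ribosomal protein genes lie at 0.027 with IFN-γ and 0.041 in medium, beside -0.45 and -0.61 for the constitutive proteasome; a bar is a median with no error or test.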

How the data were processed

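Per the submitters' processing notes the deposited values were made with RMA, whose version and settings are not given in the sources used here, and some 10 µg of total RNA went into each labelled target, per the labels' protocols. The values deposited by the authors are a linear intensity per probe set. Log2 was taken here, with no pseudocount or further normalization. Tests covered 12422 of the 12488 probe sets, since 66 are array controls. Symbols came from the platform annotation: 10833 probe sets had 1 symbol, 396 several and 1193 none listed, and all 35 member genes matched RefSeq by gene number.

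Differences were tested with limma 3.58.1 in R 4.3.3, two-sided, as 4 group means over 8 arrays, with Benjamini-Hochberg adjustment over the 12422 probe sets and a call at 0.05. Array numbers were taken as pairing the arrays from the correlations of array 1 minus array 2, with no label behind it, and block values are printed beside the calls and counts they change by over 1.5 times. Promoter windows were read with Python 3.11.15. The fit without the block was tested on simulated data. Those had independent noise on each array and no difference between array numbers, unlike the data here. The number of arrays limits the precision.

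The members, lists and tests were chosen with earlier results of these data known. Genes named with values were the 6 largest differences each way per comparison (4 for the difference of effects), the 5 brightest and 5 dimmest, a fixed set, and up to 4 genes of smallest p per other list; not all are printed. Alternatives were median centring, quantile normalization, a prior with trend and robust fit, dropping the 40% of probe sets with the lowest signal, only the arrays compared, the block, each array left out, a threshold of 0.01, other probe sets per gene, and core ribosomal proteins with Fau.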

Additional observations from a re-analysis of the deposited data

How the results depend on the processing

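The count of ribosomal protein genes called was 0 in all 5 comparisons, and it was 0 under each of the 94 alternatives run, the replicate block included; at an unadjusted p under 0.05 limma gave 0 in each comparison without the block. With each array left out in turn the count was 0 to 0, and the median difference over the genes was -0.0041 to 0.0175 for IFN-γ against medium at 16 hours, 0.0013 to 0.0229 at 4 hours, -0.0325 to 0.0221 for the difference of these effects, 0.0271 to 0.0561 for 16 against 4 hours with IFN-γ and 0.0339 to 0.0673 in medium. All 75 alternative medians lay within 0.0485 of their main value, the SD of the median between replicate arrays. That margin is larger than each main median, so a median could change sign within it. The medians for IFN-γ against medium at 16 hours and for the difference of effects did so. Of 1256 alternative values of single genes 74 moved by more than the spread of their group. With 0 genes called, a call with a turned sign could not arise. Over all probe sets the counts did depend on the fit: 32 became 8 for IFN-γ at 4 hours when array 1 of its medium control was dropped and 157 with the block, and 32 became 7 at 16 hours with only the 4 arrays compared and 105 with the block. For 16 against 4 hours, 263 with IFN-γ became 27 without array 2 of IFN-γ at 4 hours and 1259 with the block, and 531 in medium became 73 when array 1 of medium at 4 hours was dropped and 1567 with the block. Fits that drop an array lend its partner the spread of the other groups. Pairs of arrays leave the intervals wide, and whether the 8 probe sets below the antisense controls respond to their messengers was not tested.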
